A study of Bos taurus with 13 samples.

Results

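The genes described here were chosen for lower levels under heat, after both a short and a long exposure, in cultured bovine mesenchymal stem cells. They were also chosen for a level close to the control after the short exposure and a return to 37 °C. No group was returned to 37 °C after the long exposure. Mesenchymal stem cells are adherent stromal cells that can form bone, fat and cartilage cells. The cultures were primary cells from bovine umbilical cord at passages 2 to 4, and heating to 40.5 °C began on the day after seeding. Polyadenylated RNA was sequenced from 13 cultures in 5 groups, all grown in low-glucose medium with fetal bovine serum. The 6 h control (ShortNT, n = 3) stayed at 37 °C for 6 h and the 6 h heat group (ShortHS, n = 3) at 40.5 °C for 6 h. The 3-day control (LongNT, n = 2) stayed at 37 °C for 3 days and the 3-day heat group (LongHS, n = 3) at 40.5 °C for 3 days. The recovery group (ShortHS_Recovery, n = 2) had 6 h at 40.5 °C and then 66 h at 37 °C. The labels name no donors and do not say whether replicates were separate animals, so p-values measure the spread between these cultures, which may be technical.

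The genes were chosen from the measured values. Differences between group means were taken on the log2(value + 1) scale, where a value is a read count divided by the library's size factor. A gene was chosen when its mean value over the 13 libraries was from 50 to under 20000, its change at 6 h of heat and its change at 3 days of heat were both -1 or lower, and its difference between recovery and 3-day control was under 0.5 in size. These criteria were met by 79 of the 16595 genes in the deposited table, which is 0.706% of the 11182 genes in that window of mean values. All 79 were among the 13684 genes tested. In the window, 285 genes had a 6 h change of -1 or lower and 581 had a 3-day change of -1 or lower. Both were met by 96 genes, which is 33.7% of the former and 16.5% of the latter. The other 17 were left out because recovery was lower than the 3-day control by 0.5 or more, and none was left out for a recovery level that much higher. Another 94 genes met the criteria on the changes but had a mean value under 50.

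The table gives Ensembl identifiers without gene names, and none of the 16595 identifiers was matched to a symbol by the reference table used. The genes are therefore described by their levels, and 4 are given by identifier. Neither stromal markers nor markers of other cell types could be checked. As background, heat activates heat shock factors, which raise the transcription of chaperone genes, while transcription of many other genes is reduced during the same exposure. Proliferating stromal cultures also change with time after seeding, as cells spread, divide and lay down matrix. A lower level at a given time can thus be a fall below the starting level or a smaller rise with time. Each heated group was read against both its own control and the 6 h control. No group was sampled at the start of heating, so the 6 h control is the earliest unheated level and not the starting level itself. In bulk RNA, fewer cells of a type and less RNA per cell cannot be told apart.

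Recovered depth was between 14859428 and 39117065 reads per library, and in the 3 groups that have a replicate 3 this library stood apart from the other replicates. The dispersion ratio of a replicate pair is 1 when its reads differ by sampling noise only. It was from 1.64 to 4.94 for replicates 1 and 2 and at least 7.26 for pairs with replicate 3. Among the 79 genes, 26 had a replicate 3 value at least 1 on the log2 scale away from the mean of replicates 1 and 2 in some group. The 3-day control and the recovery group have no replicate 3. Counts with replicates 1 and 2 alone are given beside the main counts.

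The chosen genes were of moderate to low abundance. Their mean value had a median of 211 and ran from 50.5 to 5038, against a median of 671 for the tested genes in the same window. The means were under 100 in 22 genes, from 100 to under 1000 in 46 and at 1000 or more in 11. In the 6 h control, where heat had not acted, the median value was 263 for the chosen genes and 674 for the tested genes in the window. In the 3-day control it was 333 and 656. The lowest read number of a gene in any library had a median of 50, and 8 genes had fewer than 10 reads in some library.

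Added up, the values of the 79 genes were 0.216% ± 0.003 (SD, n = 3) of the 6 h control's total. After 6 h of heat their share was 0.085% ± 0.006 (SD, n = 3). At 3 days the control had 0.275% ± 0.009 (SD, n = 2) and the heated cells had 0.106% ± 0.012 (SD, n = 3). Recovered cells had 0.273% ± 0.003 (SD, n = 2). These sums fell under heat because the genes were chosen for that. The 5 genes with the highest values in the 6 h control made up 32.3% of the sum there. The recovery level lay with the 3-day control, to which the rule holds each gene, and above the 6 h control.

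**Figure D1:**
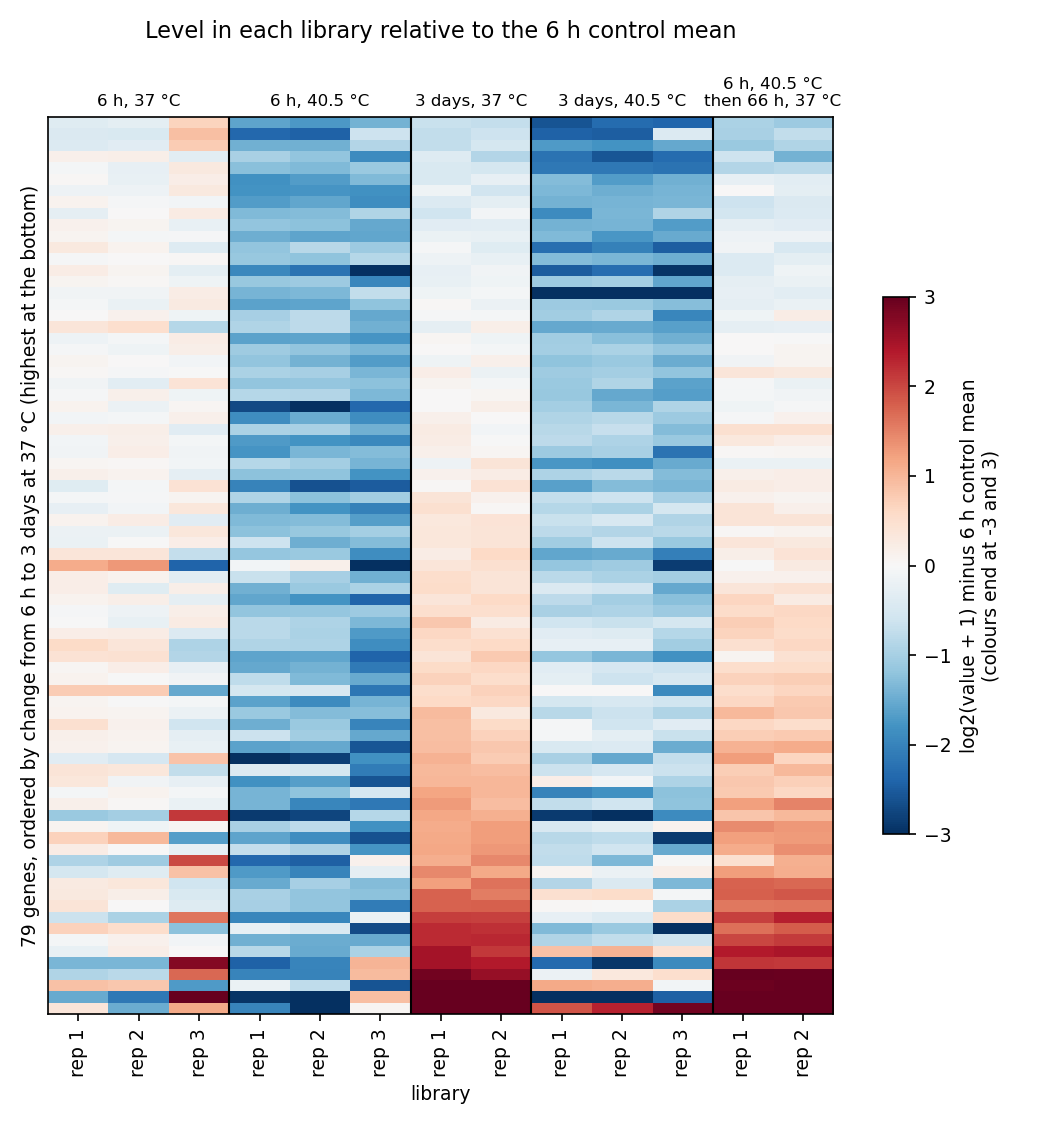
Heat map of the 79 genes (rows, ordered by their change from 6 h to 3 days at 37 °C) in the 13 libraries (columns, by group and replicate), with colour for the log2(value + 1) minus the mean of the 6 h control. Both heated groups are blue in nearly all rows, recovery resembles the 3-day control, the lowest rows are red in the 3-day control and recovery groups, and in some rows replicate 3 differs from replicates 1 and 2.

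After 6 h of heat the log2 changes of the 79 genes ran from -2.75 to -1.01 with a median of -1.32, so that the median gene was at 39.5% of its control. After 3 days they ran from -6.46 to -1.01 with a median of -1.33, at 40.4% of the control for the median gene. Because these changes chose the genes, they are a description. The 3-day heat group has a replicate 3 and the 3-day control has none, so the 3-day change is not balanced over replicates. Without replicate 3 of the 3-day heat group the rule chose 70 genes, 65 of them among the 79. The medians were alike, but the 3-day changes reached further down. A change of -2 or lower was seen in 7 genes at 6 h, in 19 at 3 days and in 3 at both. In 13 of the 19, the 3-day control was at least 1 above the 6 h control on the log2 scale, as in 21 of the 79. These low 3-day changes were thus not all falls to a lower level than at 6 h. The changes at the exposures were within 0.5 of each other in 49 genes. The 3-day change was lower by at least 1 in 13 genes and the 6 h change in 1 gene.

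In limma, 67 of the 79 genes were called lower at 6 h, where 16.7% of all tested genes were, and 72 were called lower at 3 days, where 20.3% were. Both calls were made for 64 genes and neither for 4. The 12 genes without a call at 6 h all had a replicate 3 value at least 1 away from replicates 1 and 2 in a 6 h group, which was so for 11 of the 67 called genes. With replicates 1 and 2 alone all 79 were called lower in both comparisons, where 24.2% of tested genes were at 6 h and 28.8% at 3 days. Every 6 h heat library was below every 6 h control library in 63 genes, as in 22.2% of tested genes. Every 3-day heat library was below both 3-day control libraries in 78 genes, as in 32.9% of tested genes. The overlap at 6 h in the other 16 genes was absent within replicates 1 and 2, which show no overlap in this direction in 38.9% of tested genes. None of these counts is evidence for the falls, since the same libraries chose the genes.

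**Figure D2:**
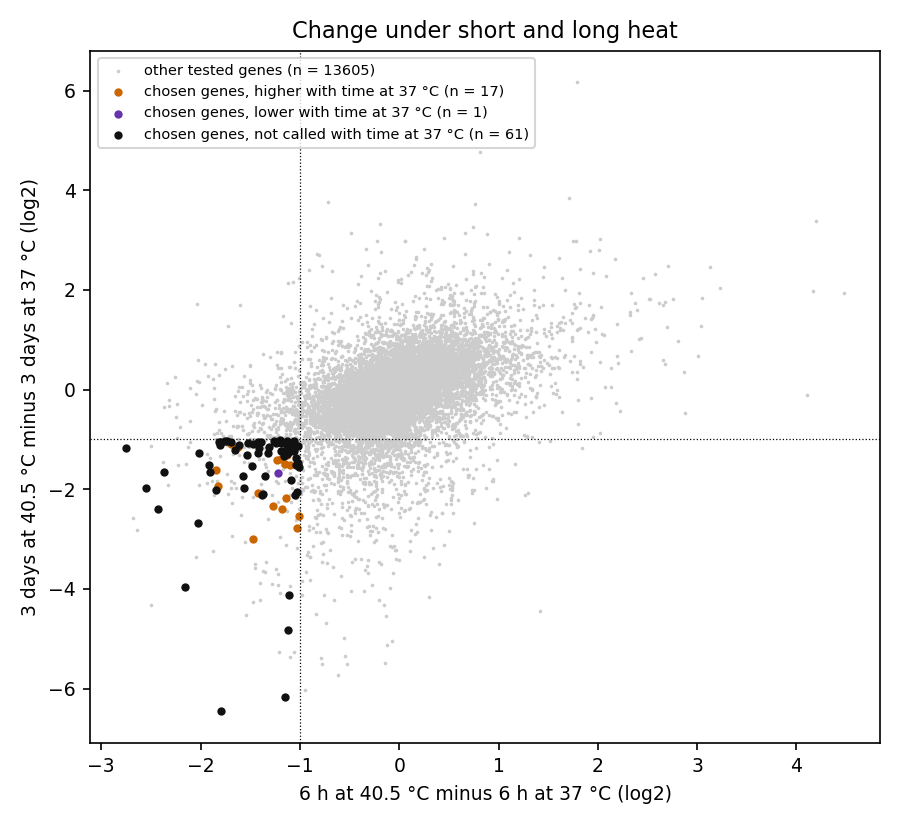
Log2 change after 6 h of heat (horizontal axis) against log2 change after 3 days of heat (vertical axis), each against its own 37 °C control, for 13605 other tested genes (grey) and the 79 chosen genes coloured by their call with time at 37 °C. Dotted lines mark -1; the chosen genes lie between -2.75 and -1.01 on the horizontal axis and reach -6.46 on the vertical axis.

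Many genes lay close to a threshold. The 6 h change was above -1.2 in 34 genes and the 3-day change in 29, and 52 of the 79 had at least 1 of these changes there. The gene nearest inside the 6 h threshold had a change of -1.01 and the nearest outside had -0.98. At the 3-day threshold the nearest were -1.01 inside and -0.98 outside. The recovery difference nearest to its limit was -0.49 inside and -0.56 outside. When each of the 13 libraries was left out in turn, the rule chose from 65 to 104 genes, and 24 of the 79 were chosen every time.

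The 6 h fall was also read in libraries that had not chosen the genes. Applied to replicates 1 and 2 alone, the rule chose 71 genes, 53 of which were among the 79. In these 71 genes the median 6 h change was -1.32 in replicates 1 and 2, which chose them, and -1.34 between the replicate 3 libraries, which did not. The change between the replicate 3 libraries was below 0 in 68 of the 71 genes (95.8%) and -1 or lower in 44 (62%). Of all tested genes, 52.3% were below 0 and 5.39% were at -1 or lower in that pair of libraries. With 1 library of each kind no test was possible. The extremes were -2.99 and 0.93, so a few genes chosen on replicates 1 and 2 did not fall in replicate 3. The 3-day fall could not be read this way, because the 3-day control has no replicate 3.

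Among the 79 genes, ENSBTAG00000010120 had the largest fall when the smaller of its changes at 6 h and 3 days was taken. This gene and the other 3 given by identifier were picked after the values had been seen. Its normalised values were 674, 608 and 468 in the 6 h control and 151, 123 and 65.0 in the 6 h heat group. They were 482 and 532 in the 3-day control, 101, 118 and 73.8 in the 3-day heat group, and 435 and 527 in the recovery group. All 6 heated libraries were below all 7 others, and replicate 3 was lowest in each group that had one. Its level was 19.4% of the control at 6 h and 19.2% at 3 days, with log2 changes of -2.42 and -2.39. Its change with time did not pass the test at 37 °C (log2 change -0.19, SE 0.31, limma adjusted p 0.691) or at 40.5 °C (log2 change -0.15, SE 0.28, limma adjusted p 0.685). With replicates 1 and 2 alone the change was -0.34 at 37 °C (limma adjusted p 0.0537) and -0.32 at 40.5 °C (limma adjusted p 0.0545). With single libraries left out it ran from -0.34 to -0.07 at 37 °C, and from -0.50 without replicate 3 to 0.10 without replicate 1 of the 6 h heat group at 40.5 °C.

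ENSBTAG00000047894 had the lowest 3-day change among the 53 genes whose replicate 3 was within 1 of replicates 1 and 2 in every group. Its values were 167, 167 and 210 in the 6 h control and 67.9, 70.5 and 108 in the 6 h heat group, a level of 45.4%. In the 3-day control they were 164 and 172, and in the recovery group 153 and 145. In the 3-day heat group it had 2, 1 and 1 reads. The 4 reads there against 323 in the 3-day control put it at 0.842% of the control level, with an exact 95% interval from 0.228% to 2.18% that covers counting error only. Nearly all of its signal was absent after 3 days of heat. From 6 h to 3 days of heat the level fell by 5.11 on the log2 scale (SE 0.20, limma adjusted p 6.71e-08). With so few reads that size depends on the pseudocount, and it was -3.24 with a pseudocount of 8 and -5.45 with 0.5. The gene was picked for low values in the 3-day heat libraries, which also enter this comparison. Its p-value there is thus not independent evidence of a fall. The gene did not pass the test with time at 37 °C (log2 change -0.10, SE 0.23, limma adjusted p 0.774).

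The other 3 genes with a 3-day change of -4 or lower were less even between replicates. The gene with the lowest change, -6.46, had values of 59.6, 38.4 and 2192 in the 6 h control and 21.5, 16.4 and 323 in the 6 h heat group. It had 1850 and 1431 in the 3-day control, 17.3, 9.99 and 30.6 in the 3-day heat group and 1721 and 1464 after recovery. Replicate 3 of its 6 h control was thus as high as the 3-day control, while replicates 1 and 2 were far lower. A second gene showed the same arrangement, with 214, 215 and 3731 in the 6 h control, 3159 and 2882 in the 3-day control and 110, 72.2 and 148 in the 3-day heat group. In the last of them, replicate 3 was the low library, with 116, 104 and 29.8 in the 6 h control and 27.7, 32.2 and 6.37 in the 3-day heat group. Whatever the order of the replicates at 6 h, the 3-day heat libraries of these genes were all below the 3-day control.

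Whether the genes changed with time at 37 °C was tested between the 3-day and the 6 h control. The rule did not use this comparison, although it used the libraries of both controls. The 79 genes tended upward, with a median log2 change of 0.42 against -0.01 over all tested genes, and 58 of them were above 0. In limma 17 rose (21.5%), where 11.7% of all tested genes did, and 1 fell (1.27%), where 13.6% did. The other 61 did not pass the test. A choice on low 3-day change favours genes with a high 3-day control. Among the 485 genes in the window with a 3-day change of -1 or lower and a 6 h change above -1, 26.6% were called higher and 7.42% lower. Among the 189 with only the 6 h change at -1 or lower, 10.6% were called higher and 19.0% lower. The counts depended on the libraries, and of these controls only the 6 h one has a replicate 3. Without replicate 1 of the 3-day control 4 genes were called higher, where 3.13% of tested genes were. Without its replicate 2 it was 10, where 7.23% were, and without replicate 3 of the 6 h heat group 26, where 13.8% were. With replicates 1 and 2 alone, 35 rose and 9 fell, where 22% and 21.9% of tested genes did.

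The 17 genes that rose had changes with time at 37 °C from 0.50 to 3.97 and a median of 1.23. In all 17 every 3-day control library was above every 6 h control library, an order that the call itself favours. This order held in 34 of the 79 genes and in 25.8% of tested genes. The recovery libraries entered this comparison only through the spread estimate, which all 13 libraries share. They were above every 6 h control library in the same 17, with a median difference of 1.36 from the 6 h control. That order was seen in 36 of the 79 genes and in 31.1% of tested genes. The rule holds recovery close to the 3-day control, so the agreement between these groups is partly set by the choice.

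ENSBTAG00000054574 had the lowest adjusted p for a rise with time at 37 °C. Its values were 89.1, 102 and 88.3 in the 6 h control and 439 and 451 in the 3-day control, a log2 change of 2.25 (SE 0.13, limma adjusted p 6.79e-06). With 6 h of heat they were 33.6, 32.7 and 31.9, with 3 days of heat 49.3, 55.5 and 59.8, and after recovery 378 and 401. The replicates of each group were close together and the groups did not overlap. From 6 h to 3 days at 40.5 °C it rose by 0.72 (SE 0.12, limma adjusted p 0.000629), and it ended below the 6 h control. Its level was 35.2% of the control at 6 h and 12.3% at 3 days.

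ENSBTAG00000018316 came next. Its values were 38.5, 52.3 and 45.9 in the 6 h control and 259 and 201 in the 3-day control, a log2 change of 2.31 (SE 0.25, limma adjusted p 0.000255). They were 24.9, 15.1 and 22.8 with 6 h of heat, 83.9, 94.4 and 62.4 with 3 days of heat, and 241 and 251 after recovery. From 6 h to 3 days at 40.5 °C it rose by 1.90 (SE 0.22, limma adjusted p 5.88e-05). All 3-day heat libraries were above all 6 h control libraries, so this gene was low only relative to the control of the same day. Its 6 h heat values rest on 37, 12 and 20 reads.

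**Figure D3:**
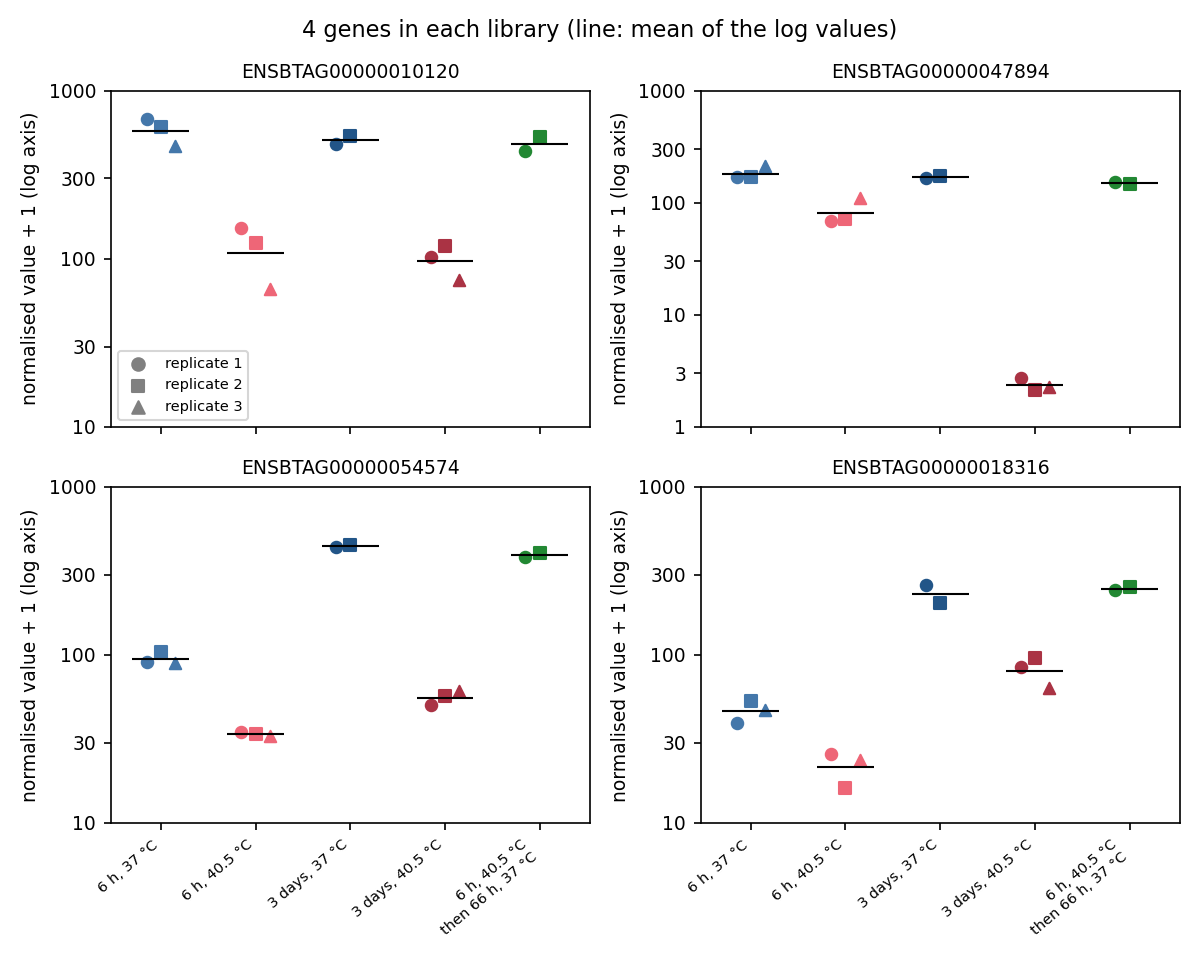
Normalised value + 1 (log axis) of 4 genes in each library by group; points are libraries, with the replicate shown by the symbol, and lines are means of the log values. The heated groups lie below the control of the same time in each panel; ENSBTAG00000047894 is near the lower limit after 3 days of heat, at 1.11 to 1.73 before adding 1, and the lower panels rise from 6 h to 3 days at 37 °C.

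The most abundant of the 79 genes also rose with time. Its values were 3690, 3421 and 2192 in the 6 h control, 1549, 1335 and 1281 with 6 h of heat, 10310 and 8702 in the 3-day control, and 4215, 4414 and 2925 with 3 days of heat. Recovery gave 10427 and 11032. Its log2 change with time at 37 °C was 1.65 (SE 0.22). The next in abundance had 4595, 4432 and 4499 in the 6 h control and 5211 and 3992 in the 3-day control, and it lay at 46.8% and 46.0% of its controls after 6 h and 3 days of heat.

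The heated groups were then compared with each other, 3 days against 6 h at 40.5 °C. This comparison is made of libraries that entered the rule. The median log2 change of the 79 genes was 0.31, against 0.00 over all tested genes. In limma 29 genes rose (36.7%), where 21.8% of all tested genes did, and 6 fell (7.59%), where 22.2% did. With the replicate number as a block, where replicate 3 stood apart in both groups, 37 rose and 13 fell, where 27.9% and 28.4% of tested genes did. With replicates 1 and 2 alone it was 42 and 14, where 27.9% and 28.2% of tested genes rose and fell. A choice on low 6 h change favours a rise here, and a choice on low 3-day change favours a fall. Among the 189 genes in the window with only the 6 h change at -1 or lower, 69.8% were called higher and 3.17% lower. Among the 485 with only the 3-day change at -1 or lower, 4.33% were called higher and 45.8% lower. Of the 17 genes that rose with time at 37 °C, 12 also rose at 40.5 °C (70.6%) and none fell. Among all 1601 tested genes that rose with time at 37 °C, 54.5% rose and 5.68% fell at 40.5 °C. The change at 40.5 °C equals the change at 37 °C plus the 3-day heat change minus the 6 h heat change. The rule bounds both heat changes, so the agreement between temperatures in the chosen genes is partly set by the choice. The gene that fell at 37 °C fell at 40.5 °C too. Of the 61 without a call at 37 °C, 17 rose and 5 fell at 40.5 °C, and 39 were called in neither. The gene with the largest 6 h fall had 21.5, 15.1 and 27.4 with 6 h and 70.9, 55.5 and 77.7 with 3 days of heat. Its level was higher after the longer exposure, an order favoured by picking it for low 6 h heat values.

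**Figure D4:**
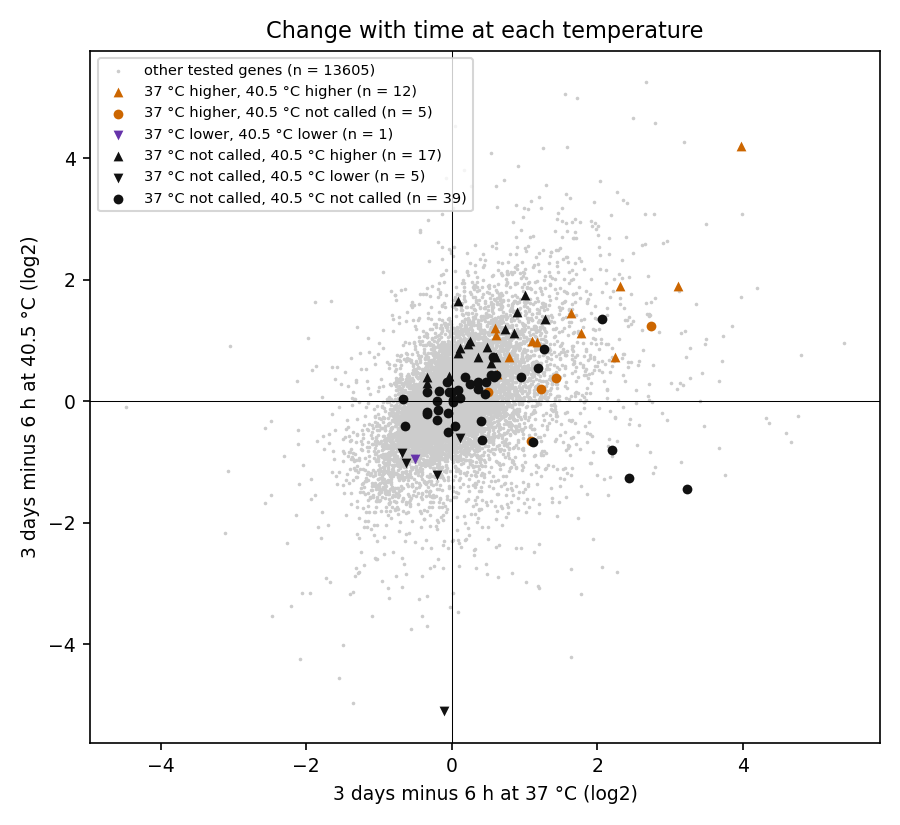
Log2 change from 6 h to 3 days at 37 °C (horizontal axis) against the same at 40.5 °C (vertical axis) for 13605 other tested genes (grey) and the 79 chosen genes, with colour for the call at 37 °C and symbol for the call at 40.5 °C. Of the chosen genes, 12 were called higher at both temperatures and 39 at neither.

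The rule used both the 6 h control and the 3-day heat libraries and favours a high level in the former and a low one in the latter, so their difference is a description. The 3-day heat group was below the 6 h control in 73 of the 79 genes and above it in 6. The median log2 difference was -1.02, against 0.01 over all tested genes. The difference was -1 or lower in 41 genes. Within replicates 1 and 2 it was below 0 in 72 genes and above 0 in 7, with a median of -0.96. Every 3-day heat library was below every 6 h control library in 57 genes, as in 28.7% of tested genes, and above every one in 2, as in 29.3% of tested genes. Of the 17 genes that rose with time at 37 °C, the 3-day heat mean was below the 6 h control in 12 and every library was in 8. In the 61 genes without such a call these numbers were 60 and 48. The difference equals the change with time at 37 °C plus the 3-day heat change. Genes called higher with time thus tend to lie higher here by construction, and the split is a description too. The 6 genes above the 6 h control included 5 that rose with time at 37 °C. The highest of them had 14.4, 3.27 and 25.2 in the 6 h control, 225 and 156 in the 3-day control and 43.2, 58.8 and 87.9 with 3 days of heat.

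After recovery the differences from the 3-day control ran from -0.49 to 0.39 with a median of -0.04, and were under 0.2 in size in 54 genes. The rule bounds them. They were below 0 in 49 genes and above 0 in 30. In limma 0 of the 79 genes were called in either direction, where 0.797% of all tested genes were. An unadjusted p under 0.05 was reached by 1, and edgeR and DESeq2 on the recovered reads called 0. With replicates 1 and 2 alone 5 were called, where 13.3% of tested genes were.

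Replicate 3 was lower than the mean of replicates 1 and 2 in 45 of the 79 genes in the 6 h control, 52 in the 6 h heat group and 52 in the 3-day heat group, with median log2 differences of -0.11, -0.25 and -0.18. The difference was at least 1 in size in 21, 17 and 12 genes. The residual SD of the 79 genes had a median of 0.29 on the log2 scale, against 0.17 over all tested genes. What sets replicate 3 apart is not stated in the labels, and its part in the results was not tested beyond the values given without it.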

How the data were processed

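Per the submitters' processing notes, reads were handled with cutadapt, STAR, HTSeq and DESeq on the build ARS-UCD1.2; versions, annotation and strand setting are not given in the sources used here. The deposited table holds, per its name, a DESeq-normalised signal for each gene and library, computed by the authors. In every library 100% of values were whole multiples of 1 step within 0.01 reads, so whole reads were recovered. Genes with a value of at least 10 in at least 2 libraries were tested (13684). Values were fitted as log2(value + 1), pseudocount 1, with limma 3.58.1 in R 4.3.3 (5 group means over 13 libraries, 8 residual degrees of freedom, mean-variance trend, two-sided, Benjamini-Hochberg over all tested genes, threshold 0.05). Fold changes on this scale understate the changes of low genes. Count tests on the recovered reads used edgeR 4.0.16 and DESeq2 1.42.0. The procedure was tested on simulated reads that had the same dispersion for every gene and no replicate that stood apart. That test therefore does not cover the spread between replicates seen here.

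Groups and replicate numbers come from the sample titles, which give 66 h of recovery where the series text speaks of 3 days. Same-numbered libraries of the 6 h and 3-day heat groups deviated together (r 0.34, 0.27 and 0.51 across genes), which paired them by the criterion of r above 0.1. Replicates 1 and 2 were as alike across numbers (r 0.32 and 0.28), and r between replicate 3 and either of them was from -0.44 to -0.37, so the criterion was met mainly because replicate 3 stood apart in both groups. For same-numbered control libraries r was -0.05 and 0.13. With 2 libraries in the 3-day control, their deviations from the group mean are mirror images. This check therefore could not show whether the control libraries were paired. The members and the lists and tests were chosen with earlier results of these data known. The gene lists, promoter motifs and the naming rule (list members, extremes and threshold neighbours with a symbol) could not be applied, as no identifier was matched to a symbol. The 4 identifiers printed were picked after seeing values. No sequence was used.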

Additional observations from a re-analysis of the deposited data

How the results depend on the processing

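The number of genes chosen was between 61 and 99 with other pseudocounts, scalings, replicates 1 and 2 alone or a mean value from 20, and from 65 to 104 with single libraries left out; with thresholds of -0.8 it was 148 and with -1.2 it was 27. For time at 37 °C, the count of genes that rose was from 4 to 26 and of those that fell from 0 to 2 with single libraries left out; replicate 1 of the 3-day control gave the lowest counts. With the replicate number as a block 31 rose and 6 fell, where 18.3% and 18.5% of tested genes did, and with replicates 1 and 2 alone, an alternative chosen after seeing the data, 35 rose and 9 fell. Whether the replicate numbers pair the controls could not be shown. The count that fell was 4 with DESeq2, 3 under quantile normalization and 0 when only the groups compared were fitted. For time at 40.5 °C, single libraries left out gave from 20 to 32 rises and from 4 to 8 falls; the replicate block gave 13 falls and replicates 1 and 2 alone 14. The change of ENSBTAG00000047894 with time at 37 °C, never past the threshold, lay between -0.16 and 0.0093 with single libraries left out, and was 0.0093 without replicate 3 of the 6 h control and with replicates 1 and 2 alone. The cause was not tested. The direction of the change with time at 37 °C was the same under all 23 alternatives for each of the other 3 identifiers. The counts by gene list were not run, since no identifier had a symbol. With 2 libraries in the 3-day control, small changes with time may have gone uncalled.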
